A study of Mus musculus with 15 samples.

Results

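Aminoacyl-tRNA synthetases are the enzymes that join each amino acid to its transfer RNA, the step that supplies the ribosome with charged tRNAs. The 36 genes described here are 20 synthetases of the cytosol, whose symbols carry no final 2, and 16 synthetases of the mitochondrion, whose symbols end in 2. They were chosen by name and matched by symbol to the Ensembl IDs of the deposited tables. All 36 had a match among 37620 IDs, and all 36 were among the 16001 genes that passed the filter on low counts. Mars (ENSMUSG00000040354) and Mars2 (ENSMUSG00000046994), the cytosolic and mitochondrial enzymes that charge methionine, act on the amino acid that the diets varied.

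The samples were lung metastases of B16-F10.1, a pigmented mouse melanoma line. The hosts were C57BL/6J males, 8 weeks old, given 100000 cells in the tail vein; 21 days later they went onto a test diet for 2 weeks. The diets were methionine deficient (0%, n = 3), methionine restricted (25%, n = 3), methionine adequate (n = 3) and methionine supplemented (300%, n = 6), which gives 15 libraries. All groups share the cell line, host strain, sex and injection, so they model lung colonies of a single line and not a tumour that arose in the host. No label ties a library to its own mouse, and p-values then reflect only how these libraries spread, which may be technical in part.

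Mitochondria have their own tRNAs, and most amino acids have a separate nuclear gene for the mitochondrial enzyme. Gars and Kars, which charge glycine and lysine, are known in human to make both enzymes from a single gene, and Eprs charges glutamate and proline. Several cytosolic synthetases sit in a multi-enzyme complex with the scaffold proteins encoded by Aimp1, Aimp2 and Eef1e1. When amino acids run short, uncharged tRNA activates the kinase GCN2, translation of the transcription factor ATF4 increases, and ATF4 is known to switch on Asns, Trib3 and many cytosolic synthetase genes. Mitochondrial synthetase genes are not in general known as ATF4 targets.

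Libraries held 13107649 to 29994249 counts. The lowest count of a member in any library was 247 for the cytosolic and 47 for the mitochondrial genes. The melanocyte markers, such as Tyr, were detected in all libraries, with a mean log2 CPM (counts scaled to library size) of 9.79 to 10.7. The alveolar type 2 markers, genes of surfactant-making lung cells, averaged 8.96 log2 CPM in deficient replicate 3 but only -0.91 in supplemented replicate 5. Deficient replicate 3 also had the lowest melanocyte level and the highest endothelial level, 6.73. Supplemented replicate 5 had a skeletal muscle level of 7.66, and adequate replicate 1 had the most unusual scaling factor, 0.69. In bulk tissue, fewer cells of a type and less RNA per cell cannot be told apart.

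The start regions of some members hold the core of the C/EBP-ATF response element, the kind of sequence that ATF4 binds, and the matches are printed because the cytosolic genes are compared below with Asns, which holds it too. The motif searched was TGATGNAA, on both strands, in the 300 bases from 250 before to 50 after each gene's start in a RefSeq table of build GRCm38.p6. It was present in 5 of the 13 cytosolic members in that table (38.5%) and in 0 of the 14 mitochondrial members, against 4.51% of 27025 genes. Cars, Hars, Lars, Nars, Rars, Vars, Wars, Hars2 and Pars2 are not in the table. Capitals mark the match in each window below, and all sequences read 5′ to 3′ on the gene's strand. A match is a description of letters, not a bound site.
Asns, chr6:7693210-7693257, minus strand: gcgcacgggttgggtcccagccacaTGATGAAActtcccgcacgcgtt
Aars, before the start, chr8:111033705-111033762, plus strand: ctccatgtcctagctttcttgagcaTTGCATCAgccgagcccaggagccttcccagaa
Aars, after the start, chr8:111033840-111033869, plus strand: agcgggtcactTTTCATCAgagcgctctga
Gars, chr6:55037946-55038000, plus strand: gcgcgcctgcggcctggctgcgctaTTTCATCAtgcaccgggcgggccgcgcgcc
Iars, chr13:49682126-49682155, plus strand: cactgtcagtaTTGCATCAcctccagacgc
Tars, chr15:11399659-11399698, minus strand: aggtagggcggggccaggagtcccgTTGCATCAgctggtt
Yars, chr4:129189895-129189924, plus strand: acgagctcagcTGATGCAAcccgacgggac

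The match began 23 bases before the start in Asns, 30 in Gars, 15 in Tars and 112 at the first site of Aars. In Iars, Yars and the second site of Aars it lay after the start. The methionine enzymes and Sars, the serine enzyme that followed Asns most closely below, had no match in their windows. The 100 bases before the start of each are given for comparison.
Mars, chr10:127311787-127311886, minus strand: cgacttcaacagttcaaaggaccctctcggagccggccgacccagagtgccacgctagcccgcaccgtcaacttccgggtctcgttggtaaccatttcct
Sars, chr3:108445260-108445359, minus strand: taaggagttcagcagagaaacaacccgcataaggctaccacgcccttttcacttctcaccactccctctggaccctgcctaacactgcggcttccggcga
Mars2, chr1:55237077-55237176, plus strand: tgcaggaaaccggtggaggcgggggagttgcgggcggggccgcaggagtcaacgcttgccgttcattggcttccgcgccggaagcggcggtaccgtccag

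Cytosolic synthetases were more abundant than mitochondrial ones. Levels were compared between genes in TPM, a relative abundance that the authors' software corrects for transcript length. The median level over 15 libraries ran from 7.05 TPM for Lars to 47.9 TPM for Gars among the cytosolic genes, with a middle value of 13.1 TPM. Among the mitochondrial genes it ran from 1.48 TPM for Pars2 to 28.4 TPM for Lars2, with a middle value of 3.82 TPM. Without Lars2 the highest mitochondrial median was 8.57 TPM, for the isoleucine enzyme Iars2.

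By mean level, the highest cytosolic genes were Gars at 55.7 TPM, Sars at 43.4 TPM and Aars, the alanine enzyme, at 34.3 TPM. The lowest were Lars at 7.37 TPM, Cars at 8.97 TPM and Yars at 9.73 TPM, which charge leucine, cysteine and tyrosine. Among the mitochondrial genes, Iars2 and the valine enzyme Vars2 averaged 9.05 and 6.69 TPM, below Lars2 at 240.6 TPM. The lowest were Nars2 at 1.61 TPM, Aars2 at 1.78 TPM and Pars2 at 1.88 TPM, for asparagine, alanine and proline. Neighbours in either order overlapped widely across libraries, and RSEM's effective length for Nars2 and Pars2 varied between libraries by 0.897 and 0.993 of its mean, so their TPM moves with it.

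**Figure D1:**
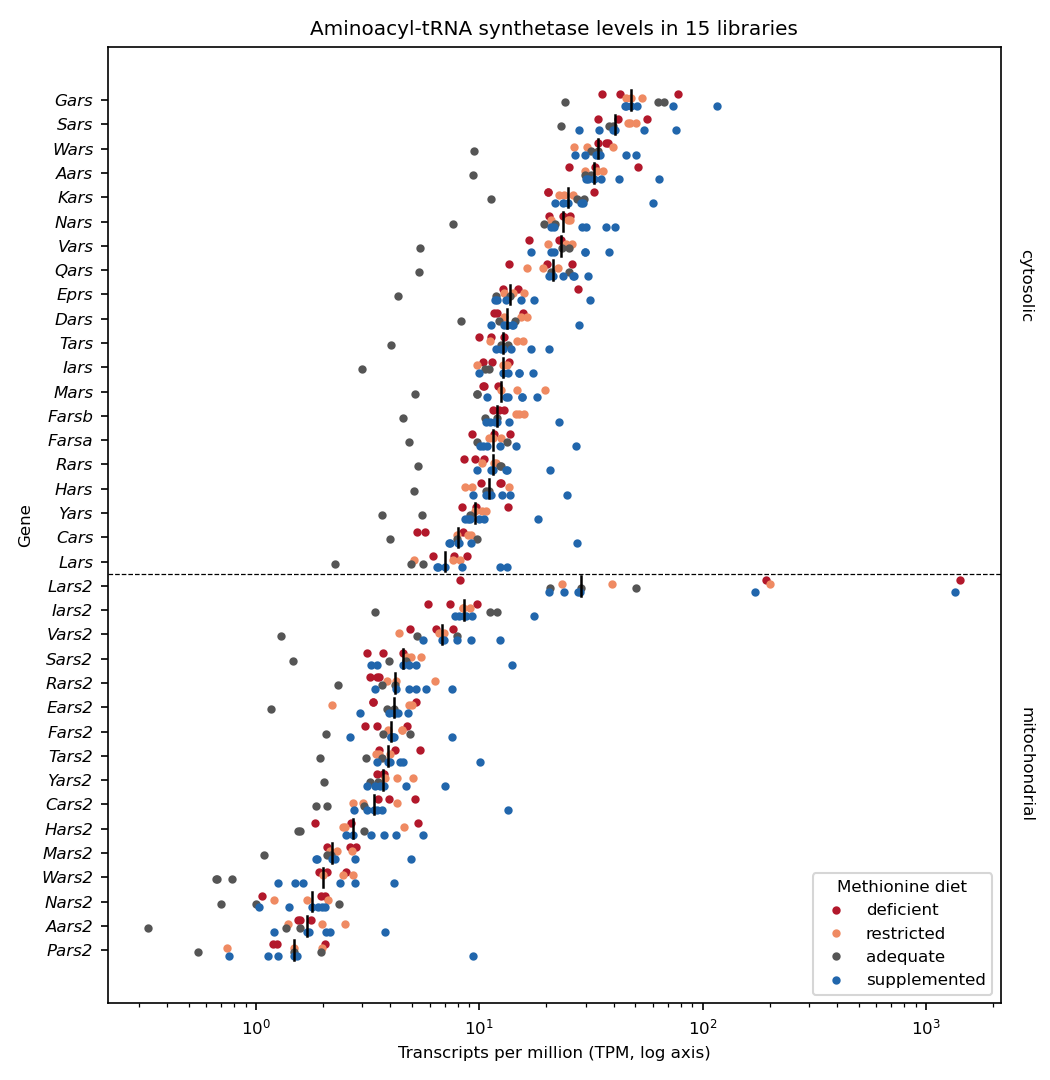
TPM of each synthetase gene on a log axis in each of the 15 libraries, coloured by diet, with a bar at the gene's median. The 20 cytosolic genes lie above the dashed line and the 16 mitochondrial genes below it; Lars2 spans 8.18 to 1425.1 TPM, and adequate replicate 1 lies low for most genes.

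For 13 amino acids the lists held a cytosolic and a mitochondrial gene whose symbols differ only by the final 2. In 11 of these pairs the cytosolic gene was the higher in all 15 libraries. Phenylalanine, glutamate and proline also have enzymes in both classes, but these were not paired. The methionine pair had a median Mars to Mars2 ratio of 4.75, with a range of 3.68 to 8.53. The largest median ratios were 19.9 for alanine, 14.7 for tryptophan and 14.7 for asparagine, and the smallest of the 11 was 2.15 for cysteine. The tryptophan ratio ran from 9.67 to 51.4, and the effective length of Wars2 varied between libraries by 1.31 of its mean. Iars exceeded Iars2 in 11 of 15 libraries, with a median ratio of 1.48. Lars was below Lars2 in 15 of 15, with a median ratio of 0.208.

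Mars had 12.1, 10.4 and 10.5 TPM in the deficient libraries, 12.6, 14.7 and 19.6 TPM in the restricted and 5.18, 9.79 and 9.8 TPM in the adequate. In the supplemented libraries it had 10.9 TPM at the lowest and 18.2 TPM at the highest. Mars2 had 2.09, 2.65 and 2.82 TPM in the deficient, 2.7, 2.14 and 2.3 TPM in the restricted and 1.09, 2.16 and 2.09 TPM in the adequate libraries, and 1.85 to 4.93 TPM in the supplemented. Mars stood above Mars2 in each library. The low ends of both TPM ranges were in adequate replicate 1, where TPM lay low for most members. On the CPM scale, which serves for differences between libraries, adequate replicate 1 was instead the highest adequate library for both. It had 86.6 CPM for Mars and 17.9 CPM for Mars2.

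Between libraries, most members varied little. The ratio of the highest to the lowest library on the log2 CPM scale was 1.62 to 2.92 for the 20 cytosolic genes and 1.58 to 3.51 for the mitochondrial genes other than Lars2. The mean log2 CPM of the cytosolic genes was 6.43 ± 0.40 in deficient, 6.48 ± 0.14 in restricted, 6.44 ± 0.07 in adequate and 6.47 ± 0.21 in supplemented libraries (SD, n = 3, 3, 3 and 6). The same for the 15 mitochondrial genes without Lars2 was 3.84 ± 0.18, 3.86 ± 0.09, 3.82 ± 0.21 and 3.86 ± 0.18 in those diets. The difference between the classes was 2.59, 2.62, 2.61 and 2.61 log2 units, so the diet means differed by less than the spread between replicates. Deficient replicate 3 had the lowest cytosolic mean, 5.96, and was the lowest library for 14 of 20 cytosolic and 3 of 15 mitochondrial genes.

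Lars2 (ENSMUSG00000035202), the mitochondrial leucine enzyme, stood apart from the other 35 genes. In the deficient libraries it had 80.97, 1616.7 and 9762.6 CPM, in the restricted 1635.6, 202.7 and 298.3 CPM, and in the adequate 633.7, 168.4 and 415.3 CPM. In the supplemented libraries it had 231.2, 163.3, 10034.9, 1347.5, 121.2 and 227.7 CPM. The range was 6.95 log2 units, or 124-fold, and its 5 highest libraries were in 3 of the 4 diets, while the adequate libraries reached at most 633.7 CPM.

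Lars2 reads made up 1.06% of the counts in supplemented replicate 3 and 1.05% in deficient replicate 3, against 0.00765% in deficient replicate 1. Its effective length was about the same in every library. An unnamed gene of this annotation, ENSMUSG00000089855, was chosen after its values were seen because its pattern was most like that of Lars2. RSEM gave this gene a mean effective length of only 30.5 bases, far shorter than that of Lars2. It had 35.95, 874.9 and 6214.6 CPM in the deficient libraries, 458.5, 113.2 and 169.4 CPM in the restricted and 155.0, 47.79 and 94.76 CPM in the adequate. In the supplemented libraries it had 61.62, 73.74, 6587.7, 438.2, 52.75 and 46.18 CPM, so it was high in the same libraries as Lars2.

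The mitochondrial ribosomal RNAs were also high in deficient replicate 3 and supplemented replicate 3, and were likewise picked after their values were seen. The small one, mt-Rnr1, had 446.0 CPM in deficient replicate 3, 699.4 CPM in supplemented replicate 3 and 28.25 to 229.9 CPM in the other 13. The large one, mt-Rnr2, had 994.7 and 1674.3 CPM in those libraries, and 1160.4 CPM in supplemented replicate 4. Other features moved with Lars2 too. The Pearson correlation with Lars2 over 15 libraries was 0.975 for ENSMUSG00000089855 and 0.920 for mt-Rnr1. It was 0.909 for ENSMUSG00000082697, 0.860 for ENSMUSG00000083696 and 0.841 for Zfp664, and mt-Rnr2 ranked below these. What links these values was not tested. The mitochondrial medians of the diet contrasts and of the fit on Asns, with all libraries included, are given with and without Lars2.

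**Figure D2:**
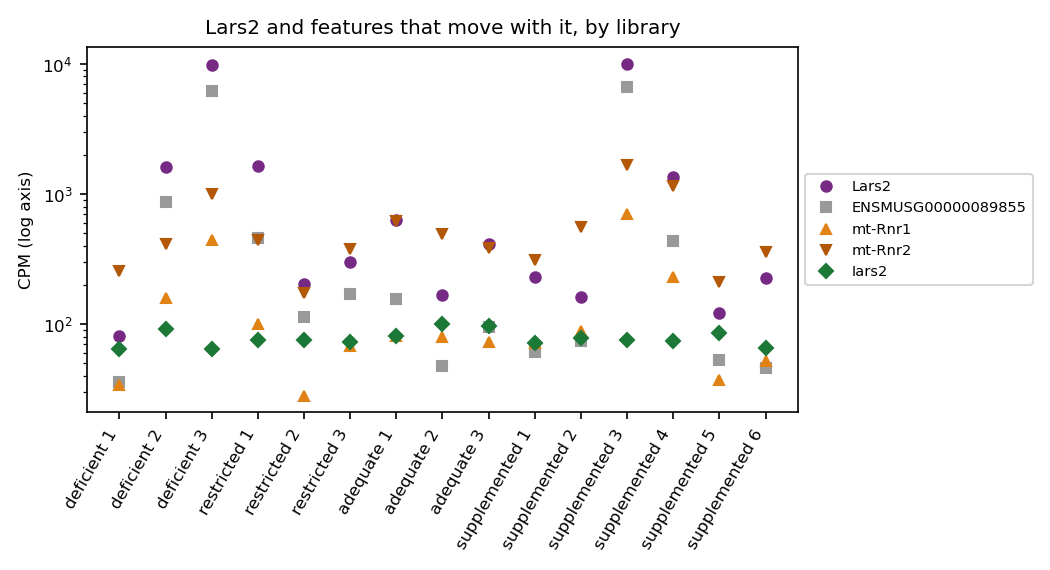
CPM on a log axis in each of the 15 libraries for Lars2, the unnamed gene ENSMUSG00000089855, the mitochondrial ribosomal RNAs and, for comparison, Iars2. Lars2 peaks at 9762.6 CPM in deficient replicate 3 and 10034.9 CPM in supplemented replicate 3, where the unnamed gene and the ribosomal RNAs are also high and Iars2 is not.

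No synthetase gene passed the test in any diet comparison. By edgeR's quasi-likelihood test with Benjamini-Hochberg adjustment at 0.05, 0 of 36 members were called in each of 5 contrasts and in a test of whether any diet differed, and DESeq2 and limma-voom also called 0. Among all genes, edgeR called 0.00625% for deficient against adequate, 0.00625% for any difference, and 0% in the other 4 contrasts. At an unadjusted p under 0.05 the members were Eprs for deficient against adequate and Iars2 for supplemented against adequate, 1 of 36 each, against 15.1% and 9.77% of all genes. It was 0 of 36 for restricted against adequate, deficient against restricted, deficient against supplemented and any difference, where 9.17%, 7.44%, 5.45% and 9.47% of all genes lay under that p. The members' shares were thus below those of all genes.

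Mars and Mars2 bear most directly on a change in dietary methionine. In deficient metastases Mars had 90.5, 63.5 and 53.8 CPM, in restricted 77.5, 96.3 and 105.2 CPM, and in adequate 86.6, 59.5 and 60.8 CPM. In supplemented metastases Mars had a lowest value of 65.5 CPM, a median of 75.2 CPM and a highest of 96.4 CPM. The ranges of all 4 diets overlapped. The log2 fold change of Mars was 0.008 ± 0.226 (SE) for deficient against adequate and 0.43 ± 0.23 for restricted against adequate, with adjusted p of 0.991 and 0.606 from edgeR. For supplemented against adequate it was 0.21 ± 0.20, for deficient against restricted -0.42 ± 0.23, and for deficient against supplemented -0.20 ± 0.20, with adjusted p of 0.767, 0.711 and 0.940 from edgeR. Without deficient replicate 3 the values against restricted and supplemented were -0.27 and -0.045.

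Mars2 had 15.2, 16.4 and 14.2 CPM in deficient, 16.2, 13.6 and 12.8 CPM in restricted and 17.9, 12.8 and 12.7 CPM in adequate metastases. In supplemented metastases its lowest value was 10.8 CPM, its median 13.2 CPM and its highest 18.3 CPM. The groups overlapped throughout. Its log2 fold changes were 0.08 ± 0.23 for deficient and -0.03 ± 0.23 for restricted against adequate, and -0.09 ± 0.20 for supplemented against adequate. They were 0.11 ± 0.23 for deficient against restricted and 0.16 ± 0.20 for deficient against supplemented, and edgeR's adjusted p was at least 0.902 in all 5.

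Wars, the tryptophan enzyme, is known to be induced by interferon gamma. It had 229.8, 219.4 and 155.5 CPM in deficient, 173.8, 234.0 and 139.8 CPM in restricted and 148.6, 180.2 and 187.1 CPM in adequate metastases. In the supplemented it had a median of 159.1 CPM, with 138.5 and 284.1 CPM at the ends. The ranges overlapped, and its log2 fold change was 0.23 ± 0.27 for deficient against adequate and 0.09 ± 0.27 for restricted against adequate, with adjusted p of 0.713 and 0.959 from edgeR. It was 0.06 ± 0.23 for supplemented against adequate, 0.14 ± 0.27 for deficient against restricted and 0.17 ± 0.23 for deficient against supplemented. The mean log2 CPM of the interferon genes was 5.84 ± 0.28 in deficient, 5.95 ± 0.49 in restricted, 4.98 ± 0.55 in adequate and 5.52 ± 0.24 in supplemented metastases, and edgeR called 0 of the 15 tested genes in each contrast. At an unadjusted p under 0.05 the interferon counts were 10 for deficient, 11 for restricted and 6 for supplemented against adequate, where 15.1%, 9.17% and 9.77% of all genes lay under that p. DESeq2 called 5, 5 and 1 of the list there, among 586, 127 and 105 genes in all, and limma-voom called 0 of the list. The relation of Wars to these levels was not tested.

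Deficient against adequate asks what removing dietary methionine does. Eprs, for glutamate and proline, had 186.3, 293.7 and 110.6 CPM in deficient metastases, against 120.8, 121.2 and 142.8 CPM in adequate, where the ranges overlapped and the spread was wider in the deficient. Its log2 fold change was 0.62 ± 0.29 with an adjusted p of 0.329 from edgeR. The value was 0.21 without deficient replicate 2 and 0.90 without deficient replicate 3. Rars, the arginine enzyme, had 49.3, 46.5 and 31.0 CPM in deficient metastases, against 62.6, 53.0 and 52.6 CPM in adequate. It was the only member whose deficient and adequate libraries did not overlap, 1 of 36 against 15.9% of all genes, with a log2 fold change of -0.41 ± 0.19 and an adjusted p of 0.335 from edgeR, and -0.22 without deficient replicate 3.

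Iars2 had 64.2, 92.4 and 64.0 CPM in deficient metastases, against 81.3, 101.3 and 97.1 CPM in adequate. These overlapped through a single deficient library, and the log2 fold change was -0.34 ± 0.17 with an adjusted p of 0.340 from edgeR. Lars2, with its values above, had a log2 fold change of 3.23 ± 1.73 and an adjusted p of 0.389 from edgeR. Without deficient replicate 3 that value was 1.07. Over the class, the median log2 fold change was 0.004 for the 20 cytosolic genes, -0.03 for the 16 mitochondrial genes and -0.06 for the 15 without Lars2, against 0.04 for all genes, and 11 of 20 and 8 of 16 values were above 0.

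**Figure D3:**
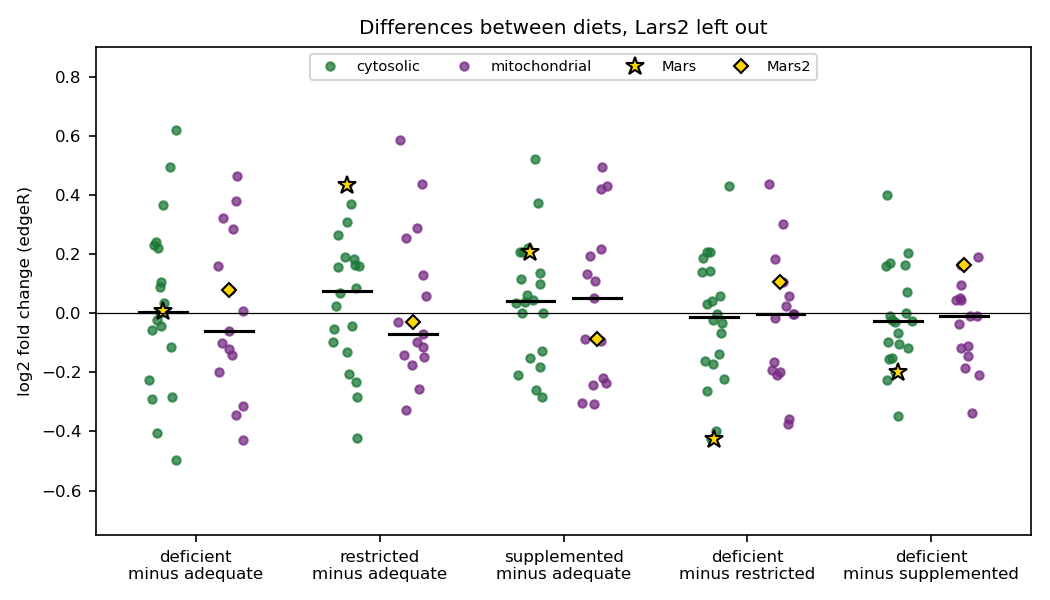
Log2 fold change (edgeR) of each synthetase gene except Lars2 in the diet contrasts, with cytosolic and mitochondrial genes side by side, a bar at each class's median, a star for Mars and a diamond for Mars2. The estimates scatter on both sides of 0 and all lie between -0.50 and 0.62.

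Restricted against adequate, a milder reduction, gave a similar picture. Farsb, the beta subunit of the phenylalanine enzyme, had 63.6, 73.2 and 60.4 CPM in restricted metastases, against 54.3, 45.9 and 52.6 CPM in adequate. Farsb was the only member with restricted libraries all above the adequate ones, with a log2 fold change of 0.37 ± 0.18 and an adjusted p of 0.574 from edgeR. Gars, Kars, Rars and Iars2 had restricted libraries all below the adequate ones, so groups did not overlap for 5 of 36 members against 16.6% of all genes. Iars2 had 75.2, 75.2 and 72.6 CPM in restricted metastases, against the adequate values above, with a log2 fold change of -0.33 ± 0.17 and an adjusted p of 0.583 from edgeR.

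Gars had 224.5, 279.0 and 217.9 CPM in restricted metastases, against 325.6, 327.4 and 313.7 CPM in adequate, and a log2 fold change of -0.42 ± 0.30. Kars, the lysine enzyme, had 110.3, 104.6 and 87.2 CPM in restricted metastases, against 128.8, 122.7 and 116.0 CPM in adequate. Aars2, the mitochondrial alanine enzyme, had 17.6, 10.3 and 12.8 CPM in restricted metastases, against 6.3, 9.53 and 11.2 CPM in adequate, which overlapped. Its log2 fold change was 0.59 ± 0.30 with an adjusted p of 0.592 from edgeR, and adequate replicate 1 was its lowest library. The median log2 fold change was 0.08 for cytosolic, -0.05 for mitochondrial and -0.07 for mitochondrial genes without Lars2, against 0.005 for all genes, with 12 of 20 and 7 of 16 above 0.

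Supplemented against adequate asks what added methionine does. Iars2 in supplemented metastases had a lowest value of 65.7 CPM, a median of 75.5 CPM and a highest of 85.6 CPM, against 81.3, 101.3 and 97.1 CPM in adequate, and the groups overlapped. Its log2 fold change was -0.31 ± 0.14 with an adjusted p of 0.506 from edgeR. Iars2 thus had values near -0.3 in each of the 3 contrasts with the adequate group, which share the same 3 adequate libraries. Lars had 47.8, 60.8 and 101.3 CPM as lowest, median and highest in supplemented metastases, against 50.1, 39.9 and 45.8 CPM in adequate, for a log2 fold change of 0.52 ± 0.25 and an adjusted p of 0.515 from edgeR.

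Nars, the asparagine enzyme, had 103.5, 138.2 and 221.9 CPM as lowest, median and highest in supplemented metastases, against 113.9, 105.7 and 120.4 CPM in adequate. Its log2 fold change was 0.37 ± 0.23 with an adjusted p of 0.618 from edgeR. Vars2 had 28.3, 35.2 and 49.6 CPM in the same order in supplemented metastases, against 22.9, 23.1 and 33.3 CPM in adequate, and its log2 fold change was 0.43 ± 0.21 with an adjusted p of 0.517 from edgeR. Groups overlapped for all 36 members, where 4.38% of all genes had groups that did not. The median log2 fold change was 0.04 for cytosolic, 0.08 for mitochondrial and 0.05 for mitochondrial genes without Lars2, against 0.03 for all genes, with 14 of 20 and 9 of 16 above 0.

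The deficient group was also set against the restricted and the supplemented. Against restricted, Cars had 32.5, 36.6 and 16.7 CPM in deficient metastases and 40.3, 38.3 and 34.7 CPM in restricted, which overlapped, with a log2 fold change of -0.40 ± 0.25 and an adjusted p of 0.778 from edgeR, and -0.13 without deficient replicate 3. Rars2, for mitochondrial arginine, had 14.4, 13.7 and 10.5 CPM in deficient metastases and 13.6, 16.3 and 19.6 CPM in restricted, with a log2 fold change of -0.36 ± 0.27, and -0.22 without restricted replicate 3. Lars2 had a log2 fold change of 2.42 ± 1.67, and 0.25 without deficient replicate 3. No member had groups that did not overlap, against 11.1% of all genes. The medians were -0.01 for cytosolic, -0.003 for mitochondrial and -0.004 for mitochondrial genes without Lars2, against 0.02 for all genes.

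Against supplemented, Eprs had a log2 fold change of 0.40 ± 0.25 in deficient metastases, and -0.008 without deficient replicate 2. Cars had -0.35 ± 0.22, and -0.075 without deficient replicate 3. Sars2, the mitochondrial serine enzyme, had 14.3, 17.8 and 11.8 CPM in deficient metastases against 12.3 to 32.6 CPM in supplemented, with -0.34 ± 0.27, and -0.098 without supplemented replicate 5. Rars2 had -0.21 ± 0.24, and -0.08 without deficient replicate 3. The adjusted p from edgeR was 0.890 for Eprs and Cars, 0.916 for Sars2 and 0.955 for Rars2. No groups failed to overlap, against 1.91% of all genes. The medians were -0.03 for cytosolic, -0.008 for mitochondrial and -0.009 for mitochondrial genes without Lars2, against 0.02 for all genes.

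The partners of the synthetases gave no call either. The 19 tested genes cover scaffold proteins, tRNA-end repair, proofreading and translation elongation factors. The list also holds Gatb, Gatc, Qrsl1, Mtfmt, Pstk, Sepsecs, Eif2ak4 and Gcn1. Of these 19, edgeR, DESeq2 and limma-voom called 0 in each contrast. At an unadjusted edgeR p under 0.05 there were 3, 3 and 2 for deficient, restricted and supplemented against adequate. Of all genes, 15.1%, 9.17% and 9.77% lay under that p. Aimp1, the scaffold gene, had 18.1, 23.5 and 14.6 CPM in deficient and 15.4, 22.8 and 18.3 CPM in restricted metastases, against 36.9, 23.7 and 26.9 CPM in adequate. Neither low-methionine group overlapped the adequate one, which held for 15.9% and 16.6% of all genes. The highest deficient value of Aimp1, 23.53 CPM, was just below the lowest adequate one, 23.67 CPM. Its log2 fold change was -0.64 ± 0.23 for deficient and -0.63 ± 0.23 for restricted against adequate, with adjusted p of 0.232 and 0.439 from edgeR, and -0.56 ± 0.20 for supplemented against adequate. Trnt1, which adds the CCA end to tRNAs, had 19.5, 29.3 and 18.2 CPM in deficient and 19.7, 24.2 and 27.8 CPM in restricted metastases, against 44.8, 36.2 and 35.7 CPM in adequate. Its log2 fold changes were -0.80 ± 0.29 and -0.70 ± 0.29, with adjusted p of 0.228 and 0.486 from edgeR. Dtd1, a proofreading enzyme that removes D-amino acids from tRNA, had -0.70 ± 0.27 for restricted against adequate. Aimp2 had -0.51 ± 0.24 for deficient against adequate and Eef1e1 had -0.72 ± 0.33 for supplemented against adequate.

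The amino acid response list, the ATF4 targets and related genes, had 0 of 32 called in each contrast by edgeR, DESeq2 and limma-voom, with 1 to 3 at an unadjusted edgeR p under 0.05 in each, where 5.45% to 15.1% of all genes lay under that p. The smallest p for deficient against adequate were those of Atf5, a stress transcription factor, at 0.96 ± 0.38 log2 units, and Slc7a3, a transporter of basic amino acids, at 2.66 ± 1.14, with adjusted p of 0.266 and 0.286 from edgeR. Its median log2 fold change was -0.10 for deficient, 0.04 for restricted and -0.06 for supplemented against adequate. Asns (ENSMUSG00000029752), which makes asparagine, had 134.9, 232.8 and 53.2 CPM in deficient, 100.4, 145.5 and 113.8 CPM in restricted and 163.9, 110.3 and 109.0 CPM in adequate metastases. In supplemented metastases it had 188.1, 103.9, 71.3, 100.8, 157.3 and 99.4 CPM. Its groups overlapped, and its log2 fold change for deficient against adequate was 0.14 ± 0.42 with an adjusted p of 0.903 from edgeR.

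Between libraries, 10 of the 20 cytosolic synthetase genes rose with Asns, in calls that depended on deficient replicate 3. The question is whether the 2 classes move with the best known ATF4 target, and it was asked in a fit of every other gene on the log2 CPM of Asns over the 15 libraries. By edgeR's quasi-likelihood test with Benjamini-Hochberg adjustment, those 10 rose and 0 fell, against 3.96% of all genes that rose. Of the 16 mitochondrial genes 0 rose, and Lars2 fell, against 8.12% of all genes that fell. At an unadjusted edgeR p under 0.05 with a positive slope there were 5 of 16, against 13.1% of all genes. That count was 1 with RLE scaling and 2 with limma-voom, against 10.8% and 11.4% of all genes. It was 2 without deficient replicate 3, against 6.72%, and 0 with the alveolar type 2 level as a covariate, against 7.09%. Without supplemented replicate 1 it was 6, against 13.3%. All 20 cytosolic slopes were above 0, and the median was 0.33. The median mitochondrial slope was 0.14, or 0.15 without Lars2, and 13 of 16 were above 0, against a median of 0.005 for all genes. The difference in slope between the classes was not tested.

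Sars was the clearest case. It had 180.4, 207.1 and 90.3 CPM in deficient, 146.6, 184.4 and 147.7 CPM in restricted and 198.7, 146.5 and 147.9 CPM in adequate metastases. In supplemented metastases it had 187.3, 142.1, 97.9, 133.0, 172.3 and 120.9 CPM. Its lowest libraries, deficient replicate 3 and supplemented replicate 3, were also the lowest for Asns, and its slope was 0.63 ± 0.08 (SE) log2 units per log2 unit of Asns with an adjusted p of 0.000634 from edgeR, which is 1.55-fold per doubling of Asns.

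Gars had 254.5, 393.3 and 147.0 CPM in deficient metastases, and 364.8, 242.6, 204.3, 212.3, 354.1 and 237.2 CPM in supplemented, beside the restricted and adequate values above. It had the steepest slope, 0.64 ± 0.11, with an adjusted p of 0.00194 from edgeR. Eprs had a slope of 0.59 ± 0.12 with an adjusted p of 0.00441 from edgeR, and in deficient metastases its order over the 3 libraries was that of Asns. The other cytosolic genes that rose were Lars at 0.50, Cars at 0.47, Aars at 0.45, Kars at 0.42, Dars at 0.39, Rars at 0.34 and Yars at 0.32, where Dars is the aspartate enzyme. Dars, Rars and Yars had adjusted p of 0.0450, 0.0456 and 0.0432 from edgeR, close to the threshold. Their calls were lost with RLE scaling and with limma-voom, each of which called 7 of the 20 cytosolic genes. Without deficient replicate 3 the slopes of Cars and Rars were 0.26 and 0.22. Of the 5 cytosolic genes with the motif above, Aars, Gars and Yars rose with Asns, while the called genes Sars, Eprs, Kars and Dars are in the table without a match.

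**Figure D4:**
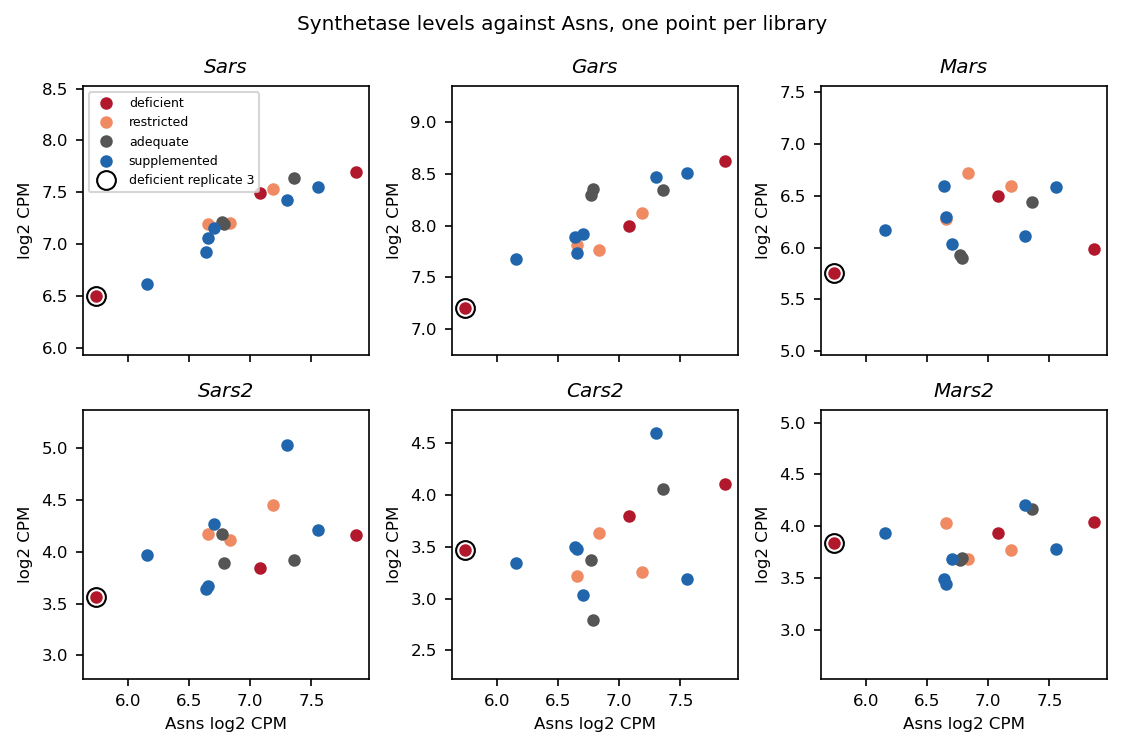
Log2 CPM of the cytosolic genes Sars, Gars and Mars and of the mitochondrial genes Sars2, Cars2 and Mars2 against log2 CPM of Asns, 1 point per library, coloured by diet. Points for Sars and Gars lie higher where Asns is higher, those of Mars and Mars2 less so, and the ringed deficient replicate 3 is at the low end of the Asns axis.

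The methionine enzymes were among those without a call. Mars had a slope of 0.20 ± 0.15 with an adjusted p of 0.407 from edgeR. Its slope was 0.064 without deficient replicate 3 and 0.35 without deficient replicate 2. Mars2 had a slope of 0.15 ± 0.13 with an adjusted p of 0.482 from edgeR. Wars had 0.31 ± 0.13 with an adjusted p of 0.129 from edgeR. The lowest cytosolic slopes were those of Iars, the isoleucine enzyme, at 0.11 ± 0.12, and Qars, the glutamine enzyme, at 0.18 ± 0.10.

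Among the mitochondrial genes the highest slopes were 0.41 ± 0.20 for Cars2, 0.38 ± 0.18 for Sars2, 0.37 ± 0.16 for Rars2 and 0.33 ± 0.14 for Ears2, the glutamate enzyme, with adjusted p of 0.191, 0.164, 0.131 and 0.142 from edgeR. The lowest were -0.22 ± 0.19 for Wars2 and -1.78 ± 0.56 for Lars2, with adjusted p of 0.456 and 0.0468 from edgeR. The call of Lars2 was lost with RLE scaling, with limma-voom, with the alveolar type 2 level as a covariate and with a mean per diet added, and when any of 12 of the 15 libraries was left out, with adjusted p of 0.0019 to 0.359 from edgeR and slopes of -3.39 to -1.40 over the libraries left out. The steepest of these was without deficient replicate 2. Lars2 was highest in deficient replicate 3 and supplemented replicate 3, the lowest libraries for Asns.

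**Figure D5:**
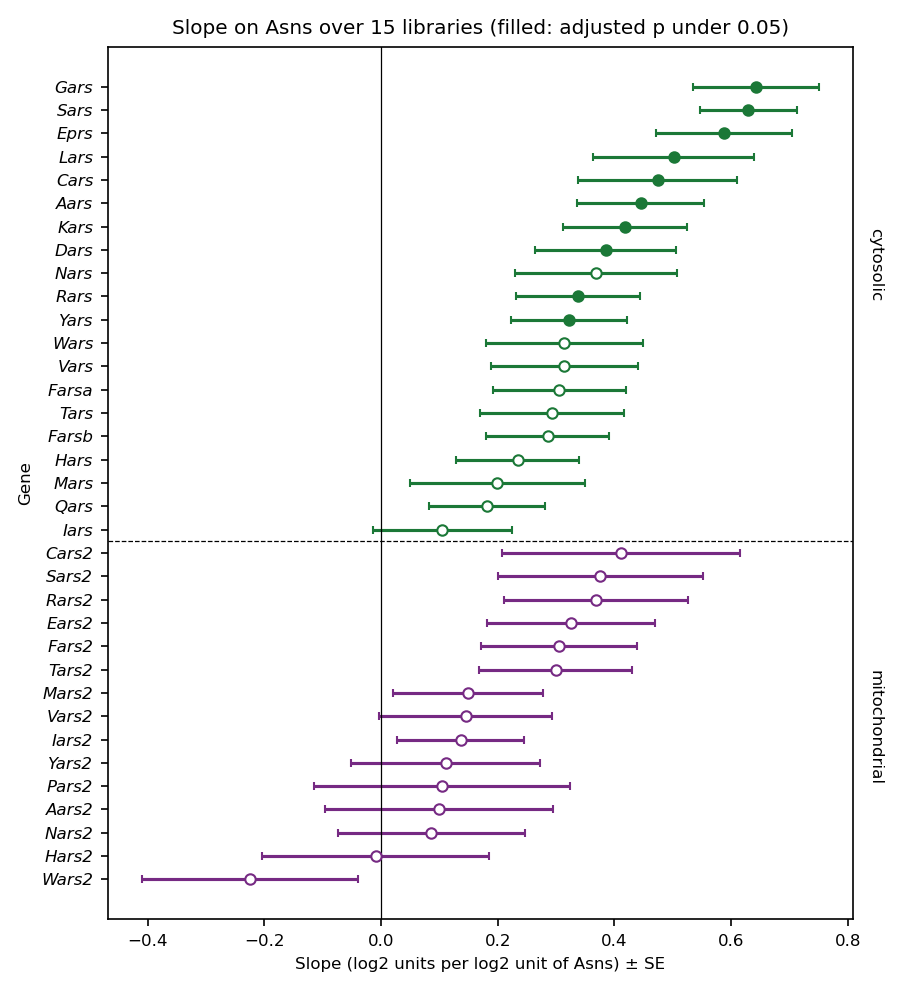
Slope of each synthetase gene on Asns, in log2 units per log2 unit, with its standard error, cytosolic genes above and mitochondrial genes below, without Lars2; filled points had an adjusted p under 0.05 from edgeR. All 20 cytosolic slopes lie above 0, from 0.11 for Iars to 0.64 for Gars, and 13 of the 15 mitochondrial slopes shown do.

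The calls of the cytosolic genes rested on deficient replicate 3. Without it, edgeR called 0 of 20 cytosolic genes and 3 genes in all. An unadjusted edgeR p under 0.05 with a positive slope was found for 17 of 20 with all libraries and for 11 of 20 without this library. The shares of all genes were 13.1% and 6.72%. The median cytosolic slope without this library was 0.34. That library also had the highest alveolar type 2 level. With it in the fit, edgeR called the alveolar type 2 and type 1 markers as falling with Asns in 8 of 8 and 5 of 5 cases. For the endothelial markers it was 8 of 10, against 8.12% of all genes that fell. With deficient replicate 3 left out, 0 of the 8 alveolar type 2 markers were called as falling. The part of these markers in the result was not tested beyond the covariate fit. With the alveolar type 2 level as a covariate, edgeR called Sars alone among the cytosolic genes and 14 genes in all, and 11 of 20 had an unadjusted p under 0.05 with a positive slope, against 7.09% of all genes. Without deficient replicate 3, adequate replicate 1 and supplemented replicate 5 together it called Eprs and Sars. With Trib3, another ATF4 target, in place of Asns, it called Gars, Rars, Sars and Wars, against 1.69% of all genes that rose. In each of these alternatives all 20 cytosolic slopes stayed above 0.

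The other genes that charge tRNA or respond to amino acids are given beside the members. In the same fit edgeR called 13 of 31 amino acid response genes as rising with Asns, against 3.96% of all genes, among them Mthfd2 at 0.65, Psat1 at 0.78 and Trib3 at 1.01, which serve the folate pathway, serine synthesis and ATF4 feedback. Of 19 charging partners, 5 rose: Eef1e1 at 0.78, and Eef1b2, Eef1a1, Eef1g and Eef1d, subunits of the elongation factor that delivers charged tRNA, at 0.64, 0.49, 0.44 and 0.34. These calls too were made with deficient replicate 3 in the fit, without which edgeR called 3 genes in all, and 14 were called with the alveolar type 2 covariate. The melanocyte markers had 0 of 8 called by edgeR and 1, Tyrp1, at an unadjusted p under 0.05, with a median slope of 0.16.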

How the data were processed

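The authors deposited 1 RSEM table per library with expected counts, TPM and effective length per Ensembl gene. Bowtie2 2.2.9, RSEM 1.30, edgeR and genome build NCBIM37 are named in the submitters' processing notes. Annotation release and strand setting: not given in the sources used here. Whether reads of overlapping genes on opposite strands were told apart is thus not known. Per the labels' protocols, total RNA was depleted of ribosomal RNA and made into stranded libraries. Expected counts were rounded and tested with edgeR 4.0.16 under R 4.3.3 (TMM scaling, filterByExpr on the 4 diets, a single quasi-likelihood fit with a mean per diet, 11 residual degrees of freedom, biological coefficient of variation 0.461, Benjamini-Hochberg at 0.05 over all genes tested). CPM is on the TMM scale, log2 CPM uses a prior count of 2, and TPM, the authors' deposited values, serves for levels between genes. The Asns fit leaves Asns out and tests 16000 genes. DESeq2 1.42.0 and limma 3.58.1 (limma-voom) were alternatives, and the steps were tested on simulated data.

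Members and lists were chosen with earlier results of these data known. Genes named are Mars, Mars2 and Wars, those with the smallest p per class and contrast, every call, the extreme slopes and the extreme levels, and list genes with the smallest p; others named for groups that did not overlap were chosen after their values were seen. Symbols were matched through the gene name tables and RefSeq synonyms. Depth was 13107649 to 29994249 counts, so the precision of most members is set by the spread between libraries and not by counting.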

Additional observations from a re-analysis of the deposited data

Results flagged for a closer look

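Cars2, the mitochondrial cysteine enzyme, stood apart in supplemented replicate 5. Its log2 CPM there was 4.60 (24.2 CPM), while the other 5 supplemented libraries ran from 3.04 to 3.50, and the gap to the nearest of them was 0.707 of the group's range, above the critical value for 6 samples. It was 1 flagged of 36 members tested in the supplemented group, and chance flags about 1 in 20 groups. The same library had the highest skeletal muscle level, 7.66, and the lowest alveolar type 2 level, -0.91; their part in the value was not tested.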

How the results depend on the processing

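No member was called in any diet contrast, nor for any difference among the diets, in any of the 137 combinations of contrast and setting run. Counts over all genes did move. For deficient against adequate edgeR called 1 gene, against 0 with no filter, 0 with the 2 groups alone, 0 with the alveolar type 2 level as a covariate (the lung covariate), 5 without the 3 odd libraries (adequate 1, supplemented 5, deficient 3) and 586 by DESeq2. For restricted against adequate the count was 0, against 29 with the lung covariate, 66 without those libraries and 127 by DESeq2; for supplemented against adequate 0, against 2 without them, 3 by limma-voom and 105 by DESeq2; for deficient against restricted 0, against 9 by DESeq2. For any difference it was 1, against 0 by limma-voom, 2 with the lung covariate, 3 without those libraries, 8 with no filter and 257 by DESeq2. Without those libraries the mitochondrial median was 0.28 for deficient and 0.20 for restricted against adequate, and the cytosolic median 0.20 for deficient against supplemented. Values near 0 changed sign: Mars for deficient against adequate was -0.00075 by limma-voom, -0.0047 with the 2 groups alone and -0.0036 with the lung covariate; Mars2 for restricted against adequate 0.0046 by limma-voom and 0.13 without those libraries; there Wars was -0.034 for restricted against adequate, and Cars 0.023 and Sars2 0.035 for deficient against supplemented. The Sars2 slope on Asns was -0.045 with the lung covariate. On the Asns slope, 1933 genes and 10 cytosolic members were called, against 14 and 1 with the lung covariate, 7 and 2 without those libraries, and 1216 and 4 with Trib3, an alternative chosen after seeing the data. The causes were not tested. Leaving out each library in turn gave 0 to 4 genes for deficient against adequate, 0 to 5 for restricted against adequate, 0 to 2 for any difference and 3 to 2598 for the slope, with 0 to 10 cytosolic and 0 to 1 mitochondrial positive calls (Rars2, without deficient replicate 2). It gave a mitochondrial median of -0.13 to 0.20 for restricted against adequate. The log2 fold change ranged for deficient against adequate from -0.28 to 0.20 for Mars and -0.0092 to 0.25 for Mars2; for restricted against adequate from -0.13 to 0.13 for Mars2 and -0.16 to 0.25 for Wars; for supplemented against adequate from -0.19 to 0.078 for Mars2 and -0.12 to 0.13 for Wars; for deficient against restricted from -0.018 to 0.36 for Wars; and for deficient against supplemented from -0.0084 to 0.69 for Eprs. Ranking levels by CPM per kb in place of TPM moved 35 of 36 members by 3 places or fewer. Both measures use the same counts and effective lengths, so their orders must be close and this does not check the lengths. No paired analysis was possible because the replicate numbers only follow the order of deposit and pair no libraries. Depth limits the lowest genes most, with 47 counts for Pars2 at the least.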
